A study of Caenorhabditis elegans with 8 samples.

Results

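The genes described here were 10 components of Wnt signalling in Caenorhabditis elegans, chosen by name: the Wnt ligand genes lin-44, egl-20, cwn-1, cwn-2 and mom-2, the receptor genes mig-1, lin-17 and cam-1, and the genes of the nuclear effectors bar-1 and pop-1. Every row of the deposited daf-2(-) and WT peak lists that carried one of these symbols was taken. Of the 10 genes, 3 had a DAF-16 peak in daf-2(-) worms and 2 had a peak in WT worms, out of 6389 genes with a peak in either list.

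The study mapped endogenous DAF-16, the FOXO transcription factor held back by insulin signalling, by chromatin immunoprecipitation and sequencing (ChIP-seq) with a polyclonal antibody. The strains were daf-2(-), in which the insulin/IGF-1 receptor gene carries the reduced-function allele e1370, and wild type (WT, N2). The daf-16(-);daf-2(-) double mutant and daf-16(-), allele mgDf50, served as DAF-16-null controls, and peaks of daf-2(-) or WT that coincided with a peak of the matching null strain were left out by the authors. All worms were mixed-stage cultures grown on OP50 bacteria at 20 °C and taken whole. Material from several ChIP samples was pooled for each library, and each of the 4 strains had 1 ChIP and 1 input library. There was therefore no spread between replicates, no difference was tested, and every interval below is a 95% interval that covers counting error only. In whole mixed-stage worms, binding in more cells and stronger binding per cell cannot be told apart. A gene without a peak is a gene with no row in a list.

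Wnt proteins are secreted, lipid-modified signals that are received by Frizzled proteins and by the Ror and Ryk families of receptors. In the canonical branch, a receptor complex with Wnt stabilizes beta-catenin, which enters the nucleus and turns on targets with a TCF/LEF factor. In C. elegans the pathway is known for neuroblast migration, for the polarity of asymmetric cell divisions and for vulval development, and the beta-catenin BAR-1 is also known to bind DAF-16.

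The rows belonged to mig-1, lin-17 and cam-1. All 3 receptor genes had a daf-2(-) peak and 2 of the 3 had a WT peak, whereas 0 of 5 ligand genes and 0 of 2 effector genes had a peak in either strain. mig-1 and cam-1 had peaks in both strains, lin-17 had a peak only in daf-2(-), and no gene had a peak only in WT. The share with a peak was 30% in daf-2(-) and 20% in WT. Over all 19983 protein-coding genes of the annotation table it was 18% in daf-2(-) and 15% in WT, so with 10 genes each count lay close to the background. Receptor genes beyond these 3 did not share the pattern: of 5 further receptor or extracellular genes (mom-5, cfz-2, lin-18, sfrp-1 and plr-1), 1 had a daf-2(-) peak and 0 had a WT peak, and mom-5 and cfz-2, the other Frizzled genes of the worm, had no peak in either list.

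The 3 genes carried 4 peaks in daf-2(-) and 3 in WT. Of these, 3 of the 4 daf-2(-) peaks overlapped a WT peak by at least 1 bp, and 3 of the 3 WT peaks overlapped a daf-2(-) peak. The background was 70.6% of the 6859 daf-2(-) peaks and 87.4% of the 5396 WT peaks. Of the 7 peaks, 6 had their centre in the promoter window used by the study, from 2.5 kb upstream to 300 bp downstream of a transcription start site (TSS), beside 74.8% of all peaks in each list. The 7 peaks were 4 sites, since each WT peak overlapped a daf-2(-) peak. By site, 3 of the 4 lay in the window, close to the background.

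**Figure D1:**
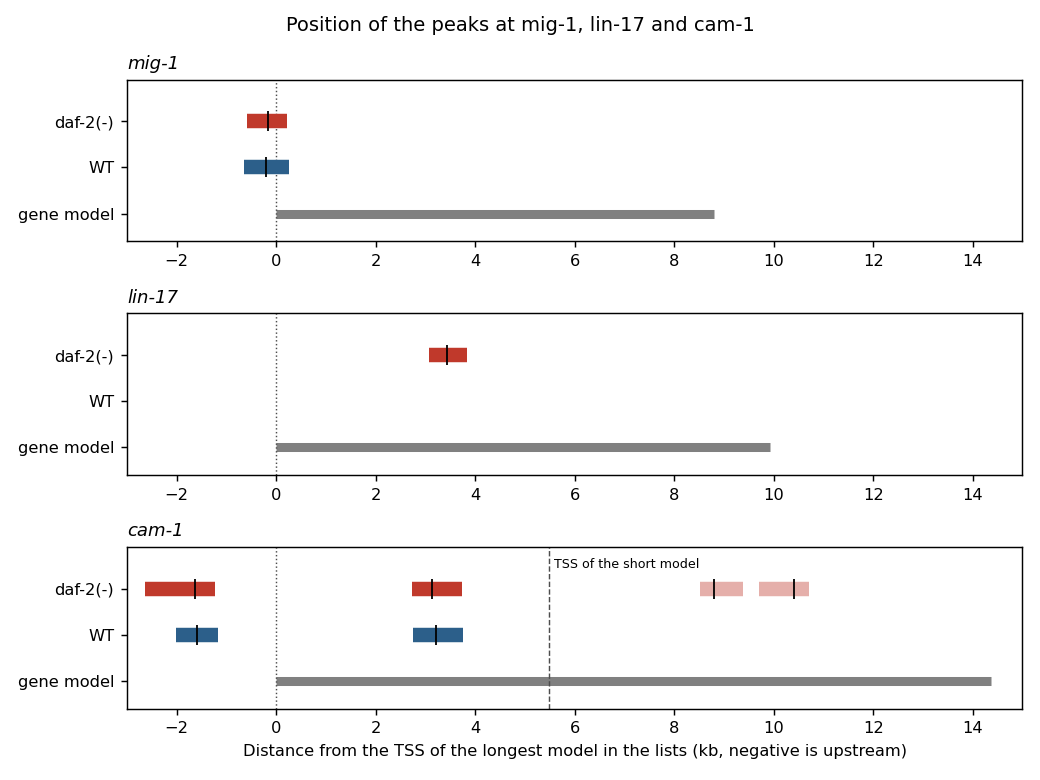
Peaks (bars) and summits (black ticks) at mig-1, lin-17 and cam-1, in daf-2(-) (red, above) and WT (blue, below), in kb from the TSS of the longest gene model in the lists; pale red bars are daf-2(-) peaks assigned to the non-coding gene D2013.11. The summits of the overlapping pairs lay 41 to 64 bp apart, and the lin-17 peak, 3457 bp into the gene, had no WT counterpart.

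mig-1 encodes a Frizzled receptor that acts in the migration of the Q neuroblast descendants and of the HSN neurons. The gene (WBGene00003238, transcript Y34D9B.1a) lies on the minus strand of chromosome I between 948566 and 957373 in the WS230 build, and its peak covered the TSS in both strains. In daf-2(-) the peak ran from 957148 to 957960, a length of 813 bp, with its centre 181 bp upstream of the TSS. In WT it ran from 957118 to 958015, a length of 898 bp, so that the whole daf-2(-) peak lay inside it. The summits were 41 bp apart, beside a median of 39 bp over all 4844 overlapping pairs.

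The daf-2(-) peak of mig-1 held 74 tags (58.1 to 92.9, exact Poisson interval), and the WT peak held 119 tags (98.6 to 142). Summit height, the number of tags piled up at the highest point, was 39 in daf-2(-) and 73 in WT. Fold enrichment, the ratio of that height to the background value of the peak, was 5.35 in daf-2(-) and 9.34 in WT. By all of these measures the mig-1 peak was lower in daf-2(-), with a fold enrichment ratio of 0.573 (log2 ratio -0.80) and a tag ratio of 0.622 (0.459 to 0.838, exact binomial interval). The false discovery rate (FDR) was 0.09% in daf-2(-) and 0.29% in WT.

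The deposited tags and heights are not scaled to a common depth, and each strain had 1 ChIP library. These ratios therefore compare the lists as deposited and do not say in which strain DAF-16 binding was stronger. Over all overlapping pairs the median ratio of daf-2(-) to WT was 0.756 for fold enrichment, 0.685 for height and 0.669 for tags. The median tag ratio lay inside the mig-1 interval. For fold enrichment, the mig-1 log2 ratio stood at percentile 16.1 of all pairs. Within its own list, the mig-1 peak stood at percentile 24.6 of fold enrichment in daf-2(-) and at percentile 38.5 in WT, so it was below the median of both lists.

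**Figure D2:**
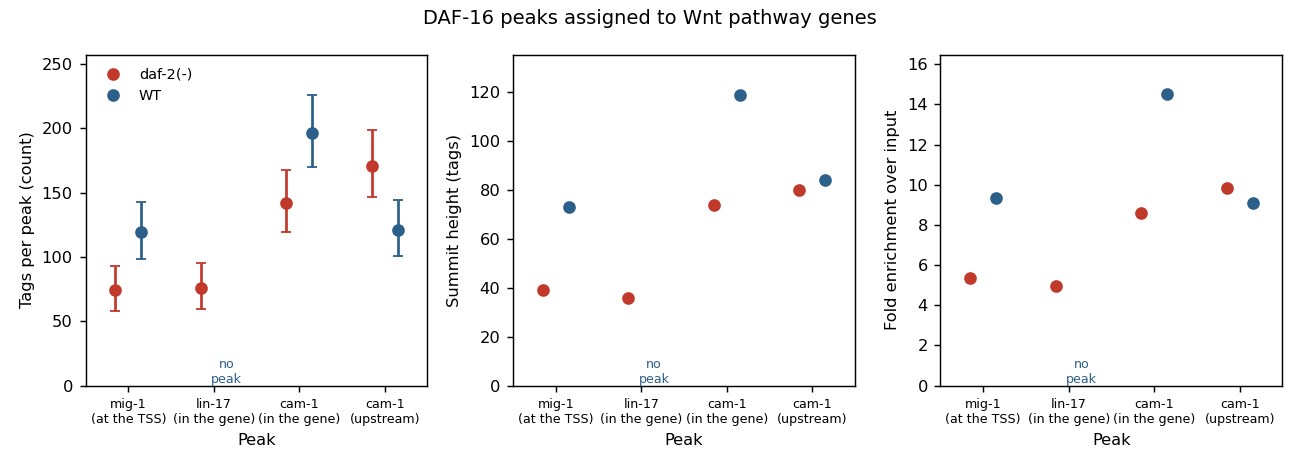
Tags per peak with exact Poisson 95% intervals, height of the summit and fold enrichment for the 4 daf-2(-) peaks (red, left) and the 3 WT peaks (blue, right) of the Wnt receptor genes. mig-1 and the peak inside cam-1 were lower in daf-2(-) by all measures, and the upstream peak of cam-1 had 171 tags in daf-2(-) and 121 in WT at summits of 80 and 84.

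lin-17 encodes a Frizzled receptor needed for the polarity of asymmetric divisions, among them the division of the T cell in the tail. The gene (WBGene00003006, transcript Y71F9B.5b.1) lies on the plus strand of chromosome I between 2707599 and 2717525. Its daf-2(-) peak ran from 2710674 to 2711438, a length of 765 bp, and lay inside the gene model with its centre 3457 bp downstream of the TSS. It was the only one of the 7 peaks outside the promoter window of the study. It held 76 tags (59.9 to 95.1), with a summit height of 36, a fold enrichment of 4.94 and an FDR of 0.06%.

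The WT list had no row for lin-17, and its nearest WT peak lay 15754 bp away and was assigned to snr-7. The lin-17 peak was the weakest of the set by height and by fold enrichment, at percentile 17.3 of fold enrichment in the daf-2(-) list. At this strength a WT counterpart was present for about as many peaks as it was absent. Of the 1033 daf-2(-) peaks within 10% of its fold enrichment, 524 overlapped a WT peak, or 50.7% (Wilson interval 47.7 to 53.8), beside 70.6% of the whole daf-2(-) list. The lowest fold enrichment in the WT list was 3.78, against a lowest value of 2.64 in the daf-2(-) list. Whether WT worms had tags below the calling limit at this position cannot be read from the lists.

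**Figure D3:**
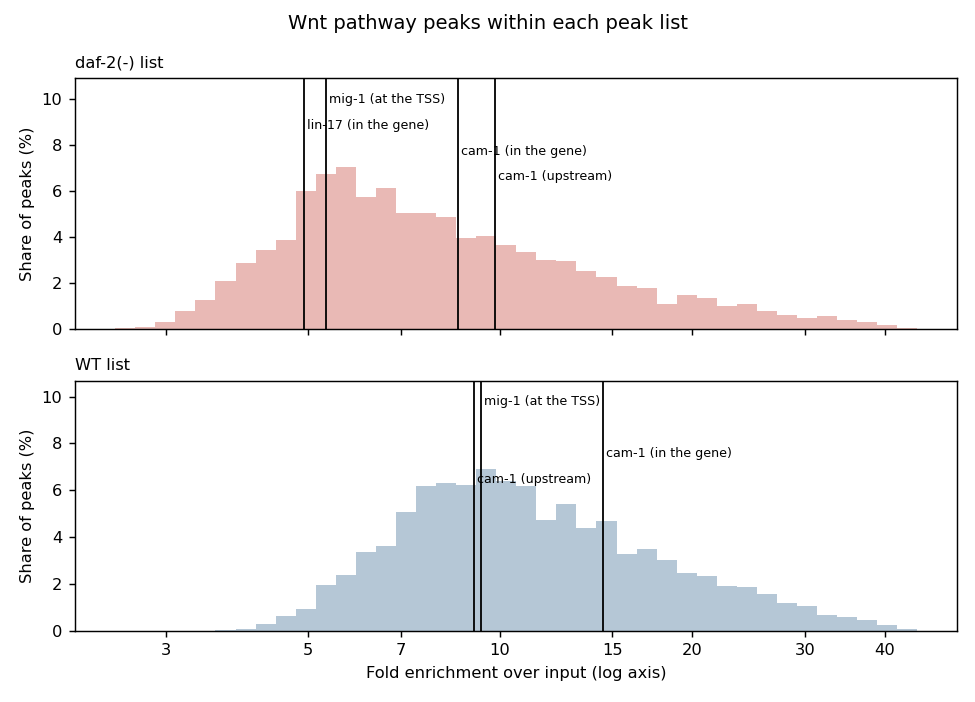
Distribution of fold enrichment over input (log axis) as the share of all peaks in the daf-2(-) list (above) and the WT list (below), with the peaks of mig-1, lin-17 and cam-1 as vertical lines. In daf-2(-), lin-17 at 4.94 and mig-1 at 5.35 lay left of the list median of 7.24 and both cam-1 peaks right of it; in WT only the peak inside cam-1, at 14.5, exceeded the median of 10.5.

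cam-1 encodes the Ror receptor tyrosine kinase of the worm, which binds Wnt proteins and acts in the migration of neurons and in neurite growth. It was the member with the most binding, with 2 peaks in each strain. Among all genes with a peak, 16% in daf-2(-) and 12.4% in WT had 2 or more. The gene (WBGene00000289) lies on the minus strand of chromosome II. The lists gave it a long model, C01G6.8a, from 9295937 to 9310301, and a short model, C01G6.8b, from 9295937 to 9304821, whose start sites lie 5480 bp apart. One peak was assigned to each model.

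The peak assigned to the short model lay upstream of that TSS and inside the long model. In daf-2(-) it ran from 9306559 to 9307576, a length of 1018 bp, with its centre 2246 bp upstream of the short model. In WT it ran from 9306552 to 9307543, a length of 992 bp, with its centre 2226 bp upstream. Exon and intron annotation was not used here, so the position is given relative to the gene models only.

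This inner peak held 142 tags in daf-2(-) (120 to 167) and 196 tags in WT (170 to 225). Its height was 74 in daf-2(-) and 119 in WT, and its fold enrichment was 8.60 in daf-2(-) and 14.5 in WT. The FDR was 0.04% in daf-2(-) and 0.18% in WT. As at mig-1, tags, height and fold enrichment were all lower in daf-2(-), with a fold enrichment ratio of 0.593 (log2 ratio -0.75, percentile 18.8 of all pairs) and a tag ratio of 0.724 (0.580 to 0.904). The tag interval again included the median of all pairs. In rank within its list it stood at percentile 61.6 of fold enrichment in daf-2(-) and at percentile 72.6 in WT, the highest position of any member in WT.

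The peak assigned to the long model lay wholly upstream of the gene. In daf-2(-) it ran from 9311520 to 9312944, a length of 1425 bp, with its centre 1931 bp and its summit 1637 bp upstream of the TSS. In WT it ran from 9311477 to 9312318, a length of 842 bp, with its centre 1596 bp and its summit 1581 bp upstream. The summits were 56 bp apart, and the difference in length came from the end farther from the gene.

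At this upstream peak daf-2(-) had 171 tags (146 to 199) and WT had 121 tags (100 to 145). It was the only member pair with more tags in daf-2(-), at a ratio of 1.41 (1.11 to 1.799), and the median of all pairs, 0.669, lay below that interval. Only 5.92% of all pairs had more tags in daf-2(-), and the cam-1 log2 ratio stood at percentile 99.3. The measures of height did not follow the tags. The summit was 80 in daf-2(-) and 84 in WT, and fold enrichment was 9.84 in daf-2(-) and 9.10 in WT. The background value, taken as height over fold enrichment, was 8.13 in daf-2(-) and 9.23 in WT. The length ratio of 1.69 stood at percentile 98.9 of all pairs. Per kb of peak there were 120 tags in daf-2(-) and 144 tags in WT. The higher value in daf-2(-) was thus seen in tags per peak and slightly in fold enrichment (log2 ratio 0.11, percentile 91.2), and was turned round in height (log2 ratio -0.07) and in tags per kb (log2 ratio -0.26). The FDR was 0.04% in daf-2(-) and 0.44% in WT.

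**Figure D4:**
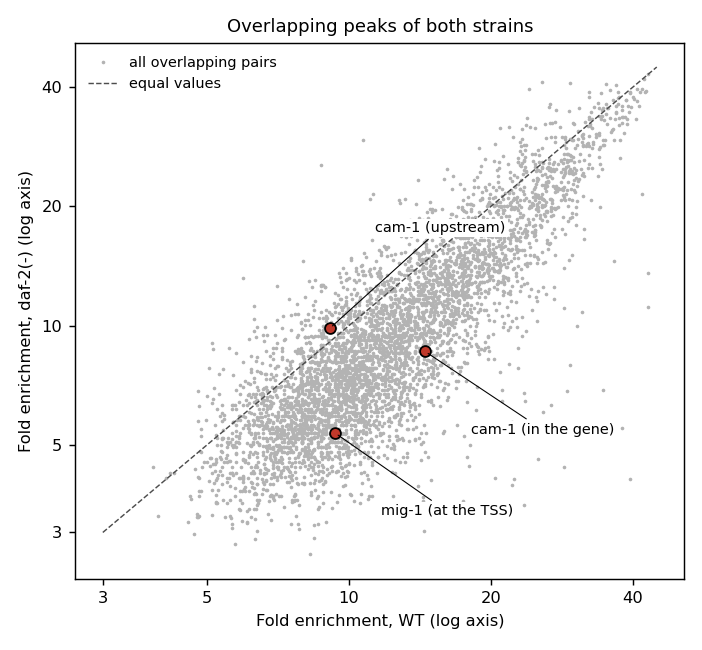
Fold enrichment in daf-2(-) (vertical, log axis) against WT (horizontal, log axis) for the 4844 overlapping pairs of peaks (grey), with the 3 pairs of mig-1 and cam-1 in red; the dashed line marks equal values. mig-1 (5.35 and 9.34) and the inner cam-1 peak (8.60 and 14.5) lay below the line and the upstream cam-1 peak (9.84 and 9.10) just above it, as did 14.1% of all pairs.

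A further 2 daf-2(-) peaks lay inside the cam-1 model but were assigned to D2013.11, a non-coding RNA gene (WBGene00044981) that lies within it. The peak from 9299586 to 9300594 was 1009 bp long and held 106 tags, with a height of 40 and a fold enrichment of 5.01. The peak from 9300922 to 9301790 was 869 bp long and held 80 tags, with a height of 31 and a fold enrichment of 3.95. Neither overlapped a WT peak, the nearest being the inner cam-1 peak at 5958 bp and 4762 bp. By position, then, the cam-1 region from the end of the gene to 2.5 kb upstream held 4 peaks in daf-2(-), of which 2 were shared with WT. The 2 peaks of D2013.11 were weak, at percentiles 18.6 and 4.96 of fold enrichment in the daf-2(-) list. Of that whole list 70.6% overlapped a WT peak, but of the peaks near the lin-17 value of 4.94 only 50.7% did. No peak assigned to another gene lay inside mig-1 or lin-17 or within 2.5 kb upstream of them.

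The 5 ligand genes had no peak in daf-2(-) or WT. Peaks were assigned to the nearest TSS, coding or non-coding. The genes between each ligand gene and its next protein-coding genes on both sides, in order of gene start, were therefore also read. Those coding genes were included. Nothing was listed there for egl-20, which encodes the Wnt that guides the QL neuroblast descendants and is made in the posterior body, or for mom-2, which encodes the Wnt that polarizes the early embryo. For lin-44, the tail Wnt that orients the T cell division, the adjoining gene let-504 had a WT peak and no daf-2(-) peak. That peak ran from 4131979 to 4132801 on chromosome I, a length of 823 bp, and held 122 tags with a height of 72 and a fold enrichment of 8.96. Its nearest daf-2(-) peak was 6198 bp away.

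For cwn-1, a Wnt that acts together with egl-20 and cwn-2 in cell migration, the non-coding gene K10B4.9 had a peak in both strains. On chromosome II, the daf-2(-) peak of K10B4.9 ran from 133806 to 134531 (726 bp) and held 86 tags, with a height of 49 and a fold enrichment of 6.13. The WT peak ran from 133660 to 134531 (872 bp) and held 122 tags, with a height of 65 and a fold enrichment of 8.14. For cwn-2, a Wnt that acts in neurite growth and nerve ring placement, the adjoining piRNA gene 21ur-14738 had a daf-2(-) peak only. It ran from 10059869 to 10060452 on chromosome IV (584 bp) and held 74 tags, with a height of 56 and a fold enrichment of 7.68, and the nearest WT peak was 36221 bp away.

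The nuclear effector genes also had no peak of their own. bar-1 encodes the beta-catenin of the canonical branch, and the non-coding gene F43E12.4 next to it had a peak in both strains. On the X chromosome, the daf-2(-) peak of F43E12.4 ran from 7170732 to 7171504 (773 bp) and held 67 tags, with a height of 31 and a fold enrichment of 4.17. The WT peak ran from 7170602 to 7171476 (875 bp) and held 124 tags, with a height of 60 and a fold enrichment of 7.47. A tRNA gene farther along, F43E12.t1, had a WT peak only, with a fold enrichment of 13.6, a height of 106 and 121 tags, and its nearest daf-2(-) peak was 5026 bp away.

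pop-1 encodes the TCF/LEF factor of the worm, and among the non-coding genes between it and the next coding gene, W10C8.12 had a peak in both strains. On chromosome I, the daf-2(-) peak of W10C8.12 ran from 2831174 to 2832152 (979 bp) and held 141 tags, with a height of 47 and a fold enrichment of 6.45. The WT peak ran from 2831134 to 2832098 (965 bp) and held 185 tags, with a height of 63 and a fold enrichment of 8.06. These peaks were assigned to genes next to a Wnt gene in order of gene start, and not to the Wnt gene itself. Gene ends were not used, so such a neighbour, or its peak, may lie inside the Wnt gene. Genes without a peak were not searched by position for peaks assigned elsewhere. Whether any of these peaks acts on the Wnt gene was not measured.

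In all, 4 of the 7 genes without a peak had a daf-2(-) peak among their next genes and 4 of the 7 had a WT peak there. The background over the 15986 protein-coding genes without a peak was 35.5% for daf-2(-) and 30.5% for WT. For cwn-1, bar-1 and pop-1, 3 of the 7, a non-coding gene among their next genes had a peak in both lists, against a background of 8.36%. The neighbourhoods were unequal in size: 10 genes were read for bar-1 and 13 for pop-1, but 2 to 4 for each ligand gene, and the background was not matched for this.

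Other genes of the pathway were read from a list of 33 further components. Of these, 14 had a daf-2(-) peak (42.4%) and 11 a WT peak (33.3%), with 10 in both, 4 in daf-2(-) only, 1 in WT only and 18 in neither. Both shares were above the backgrounds of 18% and 15%, as a description without a test. The list was chosen with earlier results of these data known, so the excess cannot be told apart from an effect of that choice. By role, 3 of 4 secretion genes had a daf-2(-) peak and 2 of 4 a WT peak, and the kinase genes lit-1 and mom-4 had peaks in both strains, with a daf-2(-) peak also at tap-1, whose product binds the MOM-4 kinase. For Dishevelled genes the counts were 1 of 3 in daf-2(-) and 2 of 3 in WT, for the destruction complex 2 of 6 in each strain, for beta-catenins other than bar-1 2 of 3 in each, and for target genes 2 of 6 in daf-2(-) and 1 of 6 in WT. None of the 3 planar polarity genes vang-1, prkl-1 and fmi-1 had a peak.

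**Figure D5:**
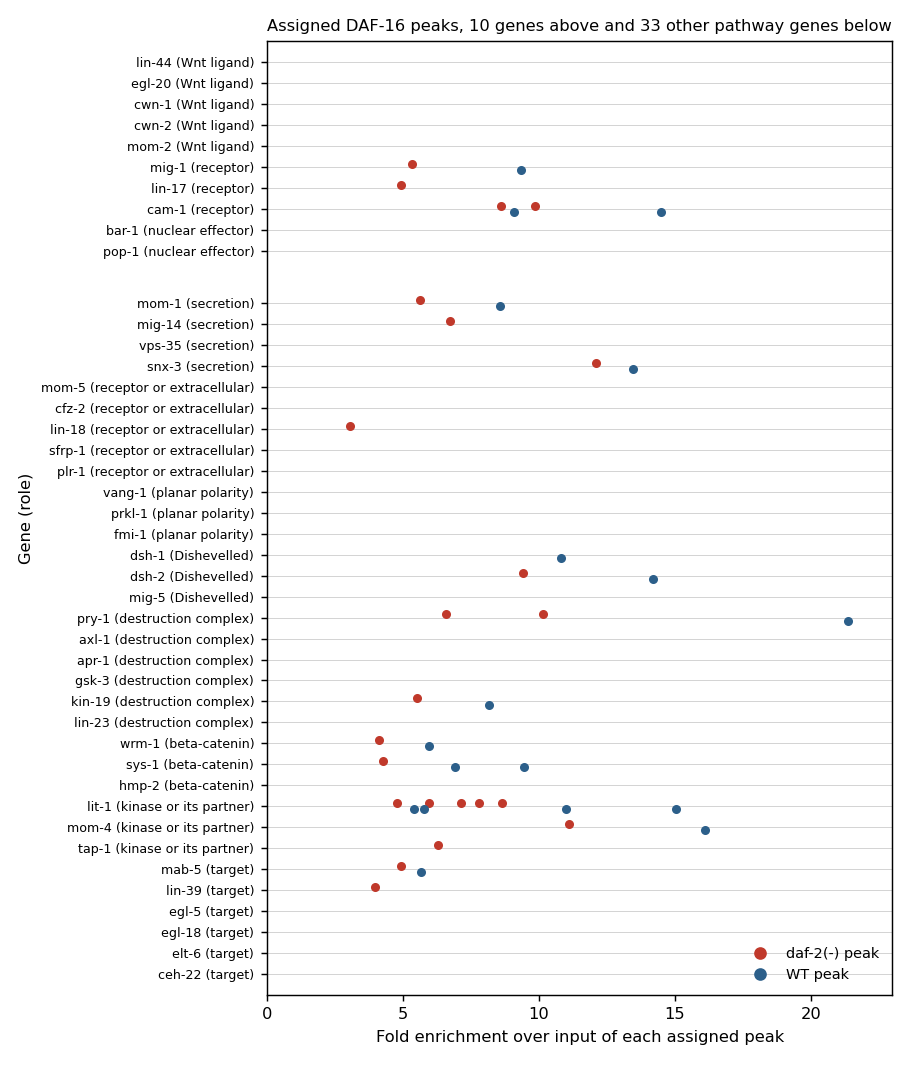
Fold enrichment of every assigned peak in daf-2(-) (red) and WT (blue, just below) for the 10 Wnt pathway genes (upper block) and 33 further pathway genes (lower block), with the role in brackets; a line without points is a gene with no peak. Peaks of the upper block lay between 4.94 and 14.5 and were at the receptor genes, and the highest value of the lower block was 21.4 in WT at pry-1.

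In 6 of these further genes a peak reached a fold enrichment of 10 in daf-2(-) or WT. pry-1, the Axin scaffold of the beta-catenin destruction complex, had daf-2(-) peaks at 10.2 and 6.58 and a WT peak at 21.4. mom-4, a MAP3K-family kinase upstream of the Nemo-like kinase LIT-1, had 11.1 in daf-2(-) and 16.1 in WT, and lit-1 itself had 5 daf-2(-) peaks between 4.77 and 8.64 and 4 WT peaks between 5.42 and 15.0. The Dishevelled gene dsh-2 had 9.41 in daf-2(-) and 14.2 in WT, and snx-3, a sorting nexin needed to recycle the Wnt carrier MIG-14, had 12.1 in daf-2(-) and 13.5 in WT. The overlapping peaks of pry-1, mom-4, dsh-2 and snx-3 were lower in daf-2(-) in fold enrichment, height and tags, as were those of mig-1 and the inner cam-1 peak. Most pairs in the lists were lower in this way. Only 14.1% of all pairs were higher in daf-2(-) in fold enrichment, 5.41% in height and 5.92% in tags. The direction is therefore not particular to Wnt genes. At lit-1 a pair had a fold enrichment of 5.95 in daf-2(-) and 5.42 in WT, but a height of 49 in daf-2(-) and 51 in WT and 98 tags in daf-2(-) against 208 in WT.

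Of the genes listed in only 1 strain, dsh-1 had only a WT row, at 10.8, but this peak overlapped a daf-2(-) peak of 9.19 that was assigned to C34F11.15. In the same way the daf-2(-) peak of tap-1 overlapped a WT peak assigned to C44H4.4. The daf-2(-) peaks of mig-14, lin-18 and lin-39 overlapped no WT peak, as at lin-17. In the daf-2(-) list, 70.6% of all peaks overlapped a WT peak. The fold enrichment was 6.72 at mig-14 (percentile 44.5 of the list), 3.05 at lin-18 (percentile 0.28) and 3.96 at lin-39 (percentile 5.0). The lin-18 value lay below the lowest value of the WT list, 3.78. Among the Hox genes that respond to Wnt signals, mab-5 had 4.94 in daf-2(-) and 5.66 in WT inside the gene, lin-39 had 3.96 in daf-2(-) close to its TSS, and egl-5 had no peak.

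As a point of reference, sod-3, a superoxide dismutase gene and the usual reporter of DAF-16 activity, had a fold enrichment of 24.8 in daf-2(-) and 16.1 in WT. Its height was 181 in daf-2(-) and 126 in WT, and it held 254 tags in daf-2(-) and 171 in WT. None of the Wnt receptor peaks reached the sod-3 level in daf-2(-), and only the upstream cam-1 peak shared with sod-3 a higher tag count and fold enrichment in daf-2(-). By height and by tags per kb the 2 genes differed. Per kb of peak sod-3 had 316 tags in daf-2(-) and 233 in WT, and the upstream cam-1 peak had 120 in daf-2(-) and 144 in WT. The height of that cam-1 peak was 80 in daf-2(-) and 84 in WT.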

How the data were processed

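Groups followed the sample labels. The authors sequenced single-end reads of 36 cycles, used CASAVA 1.8.2 and Cutadapt, kept unique alignments of Bowtie 0.12.7 to WS230, and called peaks with MACS 1.4.2 for each ChIP library against its input at an FDR limit of 5%, assigning each to the nearest TSS. As deposited, tags are whole counts inside a peak, with no depth scaling, and height is the pileup signal at the summit. The deposited fold enrichment is a ratio to the background value of the peak, which need not be local to it, and the deposited FDR is a percent. Both lists were made separately, from strains named by the deposited lists and the study. The tags inside all peaks summed to 1051563 in daf-2(-) and 1315194 in WT, and the total depth of the libraries, which the lists do not hold, was not used here.

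Members were all rows with a member's symbol. All members were named with every peak. Further pathway genes were named where a peak had a fold enrichment of 10 or more, or were Hox genes. Genes listed in only 1 strain and those without peaks were named after their values were seen. Members, lists and neighbourhoods were chosen with earlier results of these data known. Peaks were paired by an overlap of at least 1 bp, taking the nearest summit. Intervals were exact Poisson, exact binomial for tag ratios, and Wilson for shares. Gene types and neighbour order came from a RefSeq table (WBcel235), which matched 98.7% of daf-2(-) and 98.8% of WT peaks. Its coordinates served only to put genes in order of their start. Alternatives were limits on fold enrichment, FDR and distance, other overlap rules and other strength measures. A planned search for FOXO and TCF motifs was not run, since no genome was used here. A tag density table, with 1 value column matching no sample, was not used. Simulated data were used to test how peaks were overlapped and paired. The work was done in Python 3.11.15 with scipy 1.17.1, numpy 2.4.6, pandas 2.3.3 and, for figures, matplotlib 3.10.9.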

Additional observations from a re-analysis of the deposited data

How the results depend on the processing

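Of 37 alternatives over 12 results, 25 left the result within its limit. The limits were wide, so this count is not a measure of stability. A fall from 3 to 2 daf-2(-) members in the promoter window was counted as within the limit. So was the median difference in percentile rank of the member pairs (daf-2(-) minus WT), -11.0 by fold enrichment but -1.95 by height. Not all of the alternatives could have changed their result. Adding peaks inside the gene models that were assigned elsewhere covered only mig-1, lin-17 and cam-1, so the daf-2(-) count of 3 members was fixed in advance. The counts of genes with a peak depended on peak strength. With a fold enrichment of at least 10, members with a peak fell to 0 in daf-2(-), against 3, and to 1 in WT, against 2, and the further pathway genes to 3 in daf-2(-), against 14, and to 6 in WT, against 11. A limit of 10 lay above the median of all daf-2(-) peaks, 7.24, and just below the median of all WT peaks, 10.5. The share of all genes with a peak above this limit was not computed. At or above the median of its own list, 1 member remained in daf-2(-) and 1 in WT, and both were cam-1. With an FDR of 0.1% or less, 3 members had a peak in daf-2(-) and 0 in WT. The share of all peaks that pass this limit was not computed for either list. The WT peak of sod-3 did not pass it either, at an FDR of 0.16%, so these counts do not show a difference particular to Wnt genes. Of the 7 member peaks, 2 lay within 0.5 kb upstream of the TSS and 2 within 1 kb either side, against 6 in the main window. In each case they were the mig-1 peaks of daf-2(-) and WT, which is 1 site. The share of all peaks in these narrower windows was not computed. The counts of shared peaks were 3 and 3 under every overlap rule tried. The median log2 ratio of the member pairs was -0.75 by fold enrichment and between -0.69 and -0.46 by height, tags and tags per kb. There were only 3 pairs, 2 of them at cam-1. In each measure the median was the value of the inner cam-1 peak, so it describes 1 peak and not a set. Over all pairs the medians were -0.40 by fold enrichment, -0.55 by height, -0.58 by tags and -0.43 by tags per kb. The upstream cam-1 peak changed sign, with a log2 ratio of 0.11 by fold enrichment, -0.070 by height and -0.26 by tags per kb, and was 0.50 by tags. Tags and heights were not scaled for library depth, which limits their ratios between strains. Fold enrichment is a ratio to the background value of each peak, but its ratios between strains also rest on 1 ChIP library per strain. A weak peak such as that of lin-17 may be missed in the other list. No paired analysis was possible because there was only 1 ChIP library per strain. The planned motif search was not run.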
